A study of Homo sapiens with 4 samples.

Results

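The arms of miR-28, miR-151a and miR-708, microRNAs (miRNAs) whose hairpins derive from LINE-2 repeats, were followed in the small RNA of HCT116, a human cell line established from a colorectal carcinoma. The members are the 5p and 3p arm of each hairpin, found by name among the rows of the read count table. They are 6 of 1644 miRNA names in the table, and they hold 84 of 12689 listed isoforms, an isoform being a miRNA with one pair of ends. All 6 arms had reads in the empty vector and mutant 1 libraries, and 5 had reads in the wild-type and mutant 2 libraries, where miR-708-5p was at 0.

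The study asked how mismatches and wobble pairs in the upper stem of primary miRNAs (pri-miRNAs) steer the enzyme DROSHA. HCT116 cells were transfected with the empty pcDNA3 plasmid, with pcDNA3 plasmids of wild-type pri-miRNAs, or with plasmids of the mutant 1 or mutant 2 pri-miRNAs. All cells were transfected with Lipofectamine, their RNA was taken with TRIzol, and the libraries were made with a TruSeq small RNA kit. The paper's transfections for quantitative PCR included a pri-mir-16-1 plasmid, and miR-16-5p was the normalizer of its small RNA sequencing. The labels do not give the plasmids of each sequenced mixture. No deposited plasmid sequence encodes a member, so the members are endogenous miRNAs of the host cells in all 4 conditions. Each condition has 1 library, so no test between conditions was possible, and the intervals below (95%) cover counting error only.

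A pri-miRNA folds into a hairpin that DROSHA cuts near its base and DICER cuts near its loop, which leaves a 5p and a 3p arm. The DROSHA cut sets the start of the 5p arm and the end of the 3p arm, and the DICER cut sets the other ends, which can later be trimmed or extended. The seed, bases 2 to 8 from the 5p-end, is the part of a miRNA that pairs with target transcripts, so a shifted start gives a miRNA another seed. LINE-2 elements are old retrotransposons, and a hairpin can arise where copies of such a repeat lie in opposite orientation. The LINE-2 origin of the group is taken as background, and no repeat annotation was used here. miR-28 and miR-151a are made in many human tissues from introns of LPP and PTK2, genes of proteins at cell adhesions, and miR-708 from an intron of TENM4, a gene of a membrane protein best known from neurons.

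In hg38 (GENCODE release 44), the MIR28 hairpin lies at chr3:188688781-188688866 on the plus strand, in intron 7 of LPP. MIR708 lies at chr11:79402022-79402109 on the minus strand, in intron 1 of TENM4. Mature sequences for 3 of the 6 members were matched by name in the RefSeq table (GRCh38.p14). They are shown because miR-28-3p carries most reads of its locus and because the 3p arms of miR-28 and miR-708 can be compared base by base. miR-28-5p, miR-151a-5p and miR-151a-3p had no mature entry there, so they are named only, and their seeds were not compared here. Capitals mark the seed.
hsa-miR-28-3p: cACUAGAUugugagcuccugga
hsa-miR-708-3p: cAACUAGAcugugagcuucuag
hsa-miR-708-5p: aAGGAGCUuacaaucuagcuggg
miR-28-3p lies at chr3:188688834-188688855, miR-708-3p at chr11:79402032-79402053 and miR-708-5p at chr11:79402077-79402099, each on the strand of its hairpin.

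The 3 printed arms have 3 different seeds. The 3p arms of miR-28 and miR-708 are nonetheless alike: aligned without gaps after a shift of 1 base, 17 of 21 bases are identical (81.0%), with a longest shared run of 8 bases that begins at base 9 of miR-28-3p and base 10 of miR-708-3p. Bases 2 to 7 of miR-28-3p are bases 3 to 8 of miR-708-3p, so the seed region is the same stretch read from a start that differs by 1 base. The hairpins could be aligned only with gaps, which the shares of identical bases leave out. MIR28 and MIR151A were identical at 61 of 75 aligned bases (81.3%) with 26 gap positions, MIR28 and MIR708 at 62 of 81 (76.5%) with 12, and MIR151A and MIR708 at 59 of 72 (81.9%) with 34. The longest runs shared by these pairs were 16, 15 and 9 nt. MIR708 and MIR151B reached 80.6% over 36 aligned bases with 112 gap positions and a longest run of 8 nt. MIR151B itself shares a run of 27 nt with MIR151A. Such a share alone says little, since no hairpin of another origin was aligned.

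The third hairpin, MIR151A, lies at chr8:140732564-140732653 on the minus strand of hg38, in intron 25 of PTK2, and each of the 3 hairpins lies on the strand of its host gene. Stretches of these hairpins also occur at other places in the genome. At a window of 18 nt, the shortest read length in the table, 63.8% of the windows of MIR28 were found elsewhere in hg38, against 49.3% for MIR151A and 45.1% for MIR708. At 22 nt, the usual length of a miRNA, the shares were 21.5%, 20.3% and 10.4%. The longest stretch found elsewhere was 28 nt for MIR28, 29 nt for MIR151A and 26 nt for MIR708. Of hairpins outside the group only MIR151B was searched, with 30.4% of windows at 18 nt, 13.3% at 22 nt and a longest stretch of 27 nt, the last pair of values above those of MIR708, so these shares are a description of the hairpins and not a contrast with miRNAs of another origin. The authors kept unambiguous reads, and all 21 listed isoforms of miR-28-3p and all 6 of miR-708 have a single place in hg38.

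The levels of the arms differed by more than 4 orders of magnitude on the scale of reads per 1000000 untransfected miRNA reads (RPM), which leaves out every miRNA that a deposited plasmid sequence encodes. miR-151a-3p was the highest, followed by miR-28-3p, then miR-151a-5p and miR-28-5p, and miR-708 was barely detected. The order of the first 4 was the same in all 4 libraries. This scale counts reads and is not corrected for how well each end was ligated, so an order between arms is an order of reads.

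miR-151a-3p had 160530 reads in the empty vector library, 139101 in wild-type, 140078 in mutant 1 and 168683 in mutant 2. These are 11997, 11363, 9986 and 11146 RPM, and the arm ranked 18 or 19 among the untransfected miRNAs of each library. On this scale the mutant 1 library was the lowest and the empty vector library the highest, with a ratio of 1.20 between them, and with TMM or DESeq2's size factors the wild-type library was the lowest.

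miR-28-3p had 53964, 46257, 55243 and 57247 reads in the same order of libraries, or 4033, 3779, 3938 and 3783 RPM, with ranks from 34 to 38. The highest level was 1.07 times the lowest. The coefficient of variation (CV) over the 4 libraries was 3.21% on this scale, the lowest of the 4 abundant arms, and 8 of 476 untransfected miRNAs (those averaging 50 reads or more) had a lower one. The CV depends on the scaling: with TMM it was 8.61% for miR-28-3p, 8.72% for miR-28-5p, 6.98% for miR-151a-5p and 5.63% for miR-151a-3p, which was then the flattest, against a median of 13.5%.

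miR-151a-5p had 6422, 5499, 6077 and 6549 reads, or 479.9 (468.3 to 491.8), 449.2, 433.2 and 432.7 (422.3 to 443.3) RPM. miR-28-5p had 5482, 5037, 4338 and 5497 reads, or 409.7 (398.9 to 420.7), 411.5, 309.3 (300.1 to 318.6) and 363.2 RPM. On this scale miR-28-5p was thus lowest in the mutant 1 library, below the intervals of the other 3. On the RPM scale the CVs were 4.93% for miR-151a-5p, 7.55% for miR-151a-3p and 12.9% for miR-28-5p, against a median of 14.2% over the 476 untransfected miRNAs, of which 29, 80 and 205 had a lower CV. The gap between the 5p arms of miR-151a and miR-28 was small, with 1.09 to 1.40 times as many reads for miR-151a-5p.

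miR-708 was close to the limit of detection. Its 5p arm had 9 reads in the empty vector library and 4 in that of mutant 1, or 0.673 (0.308 to 1.28) and 0.285 (0.0777 to 0.730) RPM. It had 0 reads in the wild-type and mutant 2 libraries, where a floor of 3 reads corresponds to 0.245 and 0.198 RPM and the exact interval of a count of 0 reaches up to 0.301 and 0.244 RPM. Its 3p arm had 4 reads in the empty vector library and 1 read in each other library, with intervals that overlap in all 4 libraries. For the 5p arm the empty vector interval overlaps that of mutant 1 and lies above the limits of the other libraries, which concerns counting error only and rests on 9 reads in 1 library.

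The whole library gives the frame for these values. The table held 14544516 to 19834361 miRNA reads per library, of which 12241852 to 15134221 came from untransfected miRNAs (70.5% to 92.0%), and the 6 members made up 1.47% to 1.69% of these. The labelled cell type was checked with 5 miRNAs of epithelial and intestinal cells (miR-200c-3p, miR-141-3p, miR-192-5p, miR-194-5p and miR-215-5p), which were all present and summed to between 21242 and 24152 RPM. Most of this sum came from miR-141-3p (10014 to 12683 RPM) and miR-200c-3p (8914 to 9898 RPM), and miR-192-5p had 1791 to 3003 RPM. The other intestinal miRNAs were far lower, miR-194-5p at 31.8 to 34.4 RPM and miR-215-5p at 24.2 to 35.0 RPM. Of 6 miRNAs of other cell types, those of muscle (miR-1-3p, miR-133a-3p) and neurons (miR-124-3p) had no row in the table, and miR-122-5p, miR-223-3p and miR-451a had at most 39 reads in a library, for a sum of 4.11 to 5.35 RPM. The authors kept only unambiguous reads, so a missing row cannot tell an absent miRNA from one whose reads were left out. miR-16-5p itself had 226727 reads in the empty vector library and between 425441 and 628912 in the libraries of pri-miRNA plasmids.

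None of the 4 abundant arms passed 2-fold in any comparison on the RPM scale. Among the 476 untransfected miRNAs, 1.89% passed 2-fold between the wild-type and empty vector libraries, 3.99% between mutant 1 and empty vector, 1.68% between mutant 2 and empty vector, and 2.31% between mutant 1 and wild-type. With so low a background, 0 of 4 is no result about the members. Scaled to miR-16-5p instead, all 4 arms were past 2-fold lower in each comparison with the empty vector, and so were, in either direction, 208 (wild-type), 272 (mutant 1) and 375 (mutant 2) of the 476 untransfected miRNAs, whose median log2 ratios on that scale were −0.95, −1.07 and −1.24. The comparisons with the empty vector share that 1 library.

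Because the scale itself moves all miRNAs together, each ratio was also set against the median log2 ratio of the 476 untransfected miRNAs, a difference that does not depend on the scaling. In the wild-type against the empty vector library, the log2 ratios minus this median were −0.08 for miR-28-5p, −0.18 for miR-28-3p, −0.18 for miR-151a-5p and −0.17 for miR-151a-3p. In mutant 2 against the empty vector they were −0.23, −0.15, −0.21 and −0.16 in the same order. All 4 arms therefore lay slightly below the middle of the distribution in both comparisons, well inside its SD of 0.40 and 0.42, with 113 to 192 of 476 miRNAs lower still.

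In mutant 1 against the empty vector, miR-28-5p lay 0.39 below the median in log2 (−0.39), which left 102 of 476 miRNAs lower. miR-151a-3p was at −0.25, miR-151a-5p at −0.13 and miR-28-3p at −0.02, with an SD of 0.50 over untransfected miRNAs. In mutant 1 against wild-type, miR-28-5p was again the lowest at −0.26, miR-151a-3p was at −0.03, and miR-151a-5p and miR-28-3p lay above the median at 0.10 and 0.21. The arms of miR-28 thus moved apart in mutant 1: the log2 ratio to the wild-type library, before the median is taken off, was −0.41 (−0.47 to −0.35) for the 5p arm and 0.06 (0.04 to 0.08) for the 3p arm.

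Both loci had more listed reads of the 3p arm than of the 5p arm in every library. The isoforms of miR-151a are incompletely listed, with no row for either arm at both annotated ends. Its arm shares and ratios therefore concern the listed isoforms only. The 5p arm made up 9.22% (Wilson interval 8.99 to 9.46) of the miR-28 reads in the empty vector library, 9.82% (9.57 to 10.1) in wild-type, 7.28% (7.08 to 7.49) in mutant 1 and 8.76% (8.54 to 8.98) in mutant 2. For miR-151a the 5p share was 3.85% (3.76 to 3.94), 3.80% (3.71 to 3.90), 4.16% (4.06 to 4.26) and 3.74% (3.65 to 3.83). A read of the miR-28 5p arm was matched by 9.18 to 12.7 reads of the 3p arm, and one of the miR-151a 5p arm by 23.1 to 25.8.

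Such a tilt was less common than its opposite among the loci of these cells. Over 250 untransfected loci with both arms listed and 50 reads or more on average, the median 5p share was 60.8% to 66.5%, and 111 or 112 loci lay below 50%. Of these loci, 70 to 76 had a lower 5p share than miR-28 and 49 to 60 a lower one than miR-151a, so neither was at the extreme. The place of miR-151a rests on its listed isoforms.

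miR-28 and miR-151a moved in opposite directions in the mutant 1 library. The 5p share of miR-28 was lower there by 1.94 points than with the empty vector (−1.94) and by 2.54 points than in the wild-type library (−2.54), while that of miR-151a was higher by 0.311 and 0.355 points. The counting intervals of mutant 1 did not overlap those of the other libraries for either locus. Neither change reached 5 points, a size passed by 24.8% of the 250 loci in mutant 1 against the empty vector, 15.2% against wild-type, 16.8% in wild-type against the empty vector and 17.6% in mutant 2 against it. A fall of 5 points was not possible for miR-151a, whose share is below that, and shares this small have less room to move than that of the median locus, so nothing is read from this background about either locus. The whole range over the 4 libraries was 2.54 points for miR-28 and 0.421 for miR-151a, against a median range of 2.75 points over all loci.

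miR-708 had too few reads for an arm choice by library. With the empty vector 9 of its 13 reads were of the 5p arm (69.2%, 42.4 to 87.3), a higher 5p share than at the other loci of the group. In the mutant 1 library 4 of 5 reads were of the 5p arm, and the single read of the wild-type and of the mutant 2 library was of the 3p arm.

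The 5p arms, whose start is the DROSHA cut, began at the annotated base in nearly all reads. For miR-28-5p this held for 98.5%, 98.4%, 98.3% and 98.3% of reads in the empty vector, wild-type, mutant 1 and mutant 2 libraries. For miR-151a-5p the shares were 96.8%, 97.2%, 97.1% and 97.1%, with most others 1 nt upstream (1.60% to 2.09%) or downstream (0.790% to 1.04%). The median share of the most frequent start was 98.3% over 172 untransfected arms (those averaging 1000 reads or more). miR-28-5p lay near this median, with 85 to 92 arms lower, and miR-151a-5p below it, with 62 to 64 arms lower.

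The 3p arms, whose start is the DICER cut, were less uniform. miR-28-3p began at its annotated base in 95.1% to 95.4% of reads, 1 nt downstream in 3.61% to 3.69% and 2 nt downstream in 0.907% to 1.09%. A start 1 nt downstream gives the sequence below, whose seed differs from that of the annotated form. Capitals again mark the seed.
hsa-miR-28-3p from 1 nt downstream: aCUAGAUUgugagcuccugga
This shift moves the seed away from that of miR-708-3p, which begins 1 base further upstream in the shared stretch.

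miR-151a-3p had the most variable start of the group. It began at the annotated base in 88.4%, 87.9%, 87.4% and 87.4% of reads and 2 nt upstream in 9.77% (9.63 to 9.92), 10.2%, 10.8% (10.7 to 11.0) and 10.7%. Of the 172 arms, 24 to 27 had a lower share at their most frequent start. The share of the upstream start depended on the end of the read, however. Among reads with the most frequent end, 1 nt beyond the annotated one, it was 1.82% to 2.47%, and the annotated start took 95.7% to 96.3%. Most other reads from the upstream start end at the annotated base or 1 nt short of it. No row with the annotated start is listed at those ends, so the shares over all ends rest on an incomplete list.

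The table lists the isoforms of miR-151a incompletely, which touches every level and share of this locus. For neither arm is there a row with the annotated start and the annotated end, a gap found in 8 of the 172 arms, these included (4.65%). None of the 17 listed isoforms of miR-151a-5p ends at the annotated base. The 4 listed isoforms of miR-151a-3p at the annotated start all end beyond the annotated base, whereas those from 2 nt upstream also end at it (6344 reads with the empty vector) or 1 nt short of it (6071 reads). Whether reads of the forms not listed were present was not tested, and the levels of miR-151a here count the listed isoforms only.

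For all 4 abundant arms, the libraries lay within 1 point of each other in the share of the main start. A difference of more than 5 points was found in 1.16% of the 172 arms for wild-type against the empty vector, 2.91% for mutant 1 against the empty vector, 1.16% for mutant 2 against it and 1.74% for mutant 1 against wild-type, so 0 of 4 members is near the background and no result about them. The largest difference was 0.989 points lower in mutant 1 than with the empty vector, for miR-151a-3p (−0.989).

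In 3 of the 4 abundant arms the most frequent end held a smaller share of reads than the most frequent start, the exception being miR-151a-3p. miR-28-5p ended at the annotated base in 79.6%, 77.7%, 81.9% and 78.9% of reads and 1 nt short of it in 18.4%, 19.3%, 14.5% and 17.7%. miR-28-3p ended at the annotated base in 85.3%, 84.8%, 88.1% and 85.4%, 1 nt short in 9.12%, 9.52%, 5.80% and 8.35%, and 1 nt beyond in 5.38% to 6.04%. Both arms of miR-28 thus had their fewest shortened reads in mutant 1.

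Among the listed isoforms of miR-151a, which lack those named above, the most frequent end was not the annotated one. Its 5p arm ended 1 nt beyond the annotated base in 76.9%, 77.0%, 76.1% and 75.0% of reads, and 1 nt short in 5.11%, 5.20%, 3.11% and 4.57%. An end 2 nt beyond took 15.4% of reads (empty vector), 15.3% (wild-type) and 17.4% (mutant 2), and in mutant 1 its interval ran from 17.1% to 19.0%. The 3p arm ended 1 nt beyond in 91.6%, 91.1%, 91.0% and 90.7%. Since rows at the annotated end are missing, these shares cannot show how often either arm ended there. The most frequent end was the annotated one in 103 of the 172 arms (59.9%), so an end elsewhere is common, and the median share of the most frequent end was 69.2% to 72.3%.

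The start and the end of miR-28-3p went together. Among its reads at the annotated start, 2.13% ended 1 nt beyond the annotated end with the empty vector. Of the reads that began 1 nt downstream, 65.3% (63.1 to 67.3) did so, and of those that began 2 nt downstream, 87.3% (84.3 to 89.7). The same shares were 64.6% and 90.2% in wild-type, 67.7% and 87.4% in mutant 1 and 69.3% and 86.7% in mutant 2. Reads with a later start thus also carried a later end, in all 4 libraries.

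**Figure D1:**
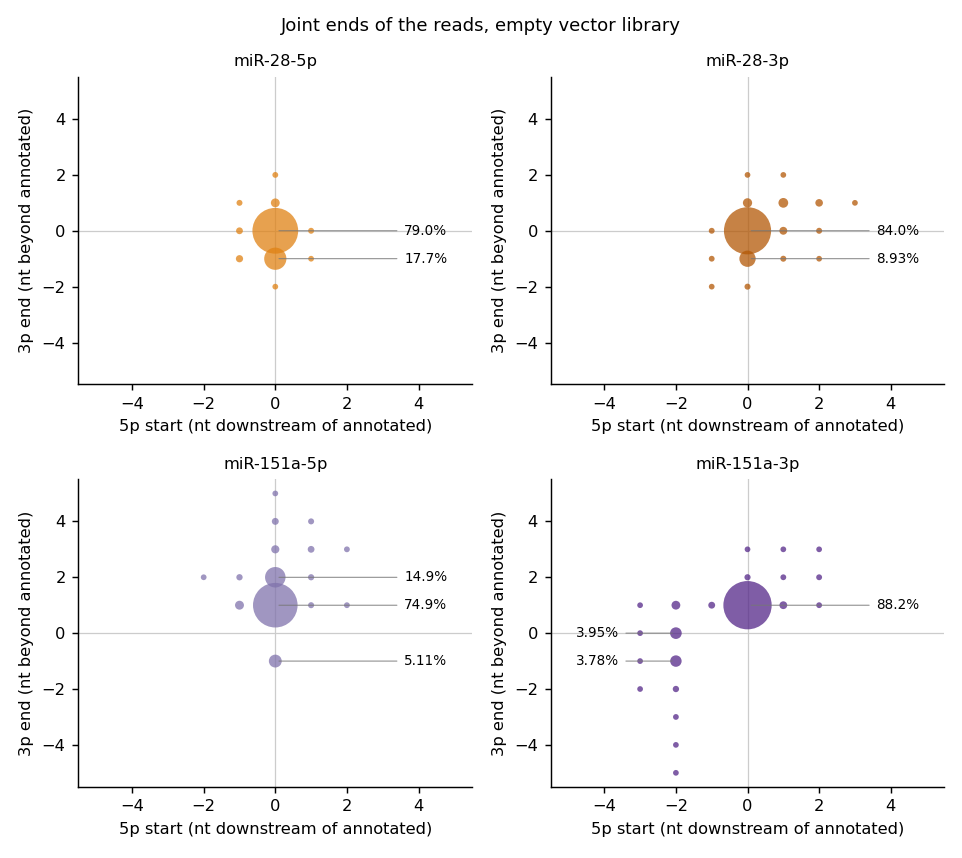
Ends of the reads of the 4 abundant arms in the empty vector library; each circle is one listed isoform, placed by its 5p start (nt downstream of the annotated start) and its 3p end (nt beyond the annotated end), with an area that grows with its share of the arm's reads and with shares of at least 3% written. Among the listed isoforms, miR-28 centres on the annotated ends, miR-151a 1 nt beyond the annotated end (74.9% and 88.2% of its arms), and miR-151a-3p has a second column of isoforms 2 nt upstream.

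The share of the most frequent end changed by less than 5 points in the 4 abundant arms in all comparisons, the largest change being 4.22 points higher in mutant 1 than in wild-type for miR-28-5p. A change of more than 5 points was seen in 6.98% of the 172 arms for wild-type against the empty vector, 25% for mutant 1 against the empty vector, 8.72% for mutant 2 against it and 21.5% for mutant 1 against wild-type.

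The mean 3p end, taken over reads at the most frequent start, sums up these shifts. It lay further out in mutant 1 than with the empty vector by 0.0594 nt for miR-28-5p, 0.0415 nt for miR-28-3p and 0.0717 nt for miR-151a-5p, and by 0.00023 nt for miR-151a-3p. Against wild-type the differences were 0.0550, 0.0451, 0.0781 and 0.00027 nt. The miRNA pool as a whole gives the background. Over the 172 untransfected arms the median shift in mutant 1 was 0.0581 nt against the empty vector and 0.0501 nt against wild-type, with 155 (90.1%) and 162 (94.2%) of the arms longer. In both comparisons miR-28-5p and miR-151a-5p lay above the median, miR-28-3p somewhat below it and miR-151a-3p near 0.

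A shift of more than 0.05 nt towards longer reads was found in 52.9% of the arms for mutant 1 against the empty vector and in 50.6% against wild-type, and 2 of the 4 members passed it in each, miR-28-5p and miR-151a-5p. In mutant 2 against the empty vector the members shifted by 0.0242, 0.0122, 0.0376 and 0.0008 nt, with a median of 0.0196 nt over all arms and 27.3% past 0.05 nt. In wild-type against the empty vector the members stayed between −0.0064 and 0.0043 nt, with a median of 0.0023 nt and 15.1% past 0.05 nt. miR-151a-3p stayed near 0 throughout, and 99.7% of its reads at the annotated start shared 1 end, with no row listed at or short of the annotated end. Of the comparisons with the empty vector, mutant 1 had the largest median shift across the miRNA pool. Mutant 2 shifted the same way, with 140 of the 172 arms longer (81.4%), and the 2 mutant libraries were not compared with each other. The part of the pool's shift in the values of miR-28 and miR-151a was not tested.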

How the data were processed

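Small RNA of HCT116 cells was sequenced in 4 libraries, 1 per plasmid mixture. According to the methods of the study and the submitters' processing notes, the authors trimmed adapters with cutadapt, aligned reads to hg38 (GRCh38) with Bowtie2 and assigned unambiguous reads, with mismatches only near the 3p-end, to miRBase loci. The deposited values are raw read counts per miRNA isoform, without normalization. The isoform is given by 5p-end and 3p-end offsets in nt, which the authors deposited as separate columns. The sign of the 3p-end offset was settled from the data: with a positive offset read as a shorter read, all 10981 isoforms of 1460 miRNAs with a RefSeq length are 18 to 26 nt long, against 84.5% under the opposite reading. A second deposited file, of the transfected pri-miRNA sequences, served to name the 36 miRNA names left out of the untransfected miRNAs.

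Reads were summed over the isoforms of an arm and scaled to 1000000 untransfected miRNA reads (RPM). Depth was 14544516 to 19834361 reads, so counting intervals are narrow for miR-28 and miR-151a and wide for miR-708. Intervals are 95% (exact Poisson for levels, Wilson for shares, normal on the log scale for ratios); reads without molecular identifiers are not independent molecules. With 1 library per condition no test was run. Backgrounds were untransfected miRNAs averaging 50 reads or more (ratios, arm share) or 1000 reads or more (ends), the members included. The miRNAs named are the members, related or seed-sharing miRNAs, miR-16-5p, cell type markers and, for each member averaging 500 reads or more, the 2 miRNAs with the most similar profile; ends are named where they hold at least 5% of an arm, with a few smaller ones chosen after their values were seen. The members and lists were chosen with earlier results of these data known, and the mean 3p end was added after the end shares had been seen.

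Alternatives were scaling to all miRNA reads, to miR-16-5p, with edgeR 4.0.16 (TMM) or with DESeq2 1.42.0 (median of ratios) in R 4.3.3, a pseudocount of 1 read, other minimums of reads, and restriction to main or near-annotated ends. Hairpins were searched exactly on both strands of hg38. Python 3.11.15, pandas 2.3.3, numpy 2.4.6, scipy 1.17.1, biopython 1.88 and matplotlib 3.10.9 were used, and the calculations were tested on simulated data.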

Additional observations from a re-analysis of the deposited data

How the results depend on the processing

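No paired analysis was possible because each condition has 1 library, and for the same reason no replicate could be left out. A pri-mir-16-1 plasmid would add to miR-16-5p reads. Scaled to these reads, 4 of the 4 abundant arms passed 2-fold in each comparison with the empty vector (0 on the scale of untransfected reads). So did 208, 272 and 375 of 476 untransfected miRNAs in wild-type, mutant 1 and mutant 2 (9, 19 and 8 on the scale of untransfected reads). The median log2 ratio of untransfected miRNAs was then −0.95, −1.07 and −1.24 in the same order. With all miRNA reads it was −0.30, −0.40 and −0.001, with 52 of 476 past 2-fold in mutant 1. Counting only reads at the most frequent start, 29 (mutant 1) and 14 (mutant 2) passed against the empty vector. Of 16 ratios, 4 turned sign with TMM, 4 with DESeq2's size factors and 1 each with all reads or miR-16-5p, none of which alters a value given relative to the median. The share of untransfected miRNAs past 2-fold was 8.24%, 10.7%, 6.82% and 9.52% (wild-type, mutant 1 and mutant 2 against the empty vector, mutant 1 against wild-type) at a minimum mean of 10 reads, 0.322%, 1.93%, 0.965% and 0.322% at 200 reads, and 13.0%, 14.2%, 12.5% and 13.8% with no minimum beyond 1 read in both libraries, so it depends on depth. With the empty vector, reads at the most frequent start gave a 5p share of 9.52% for miR-28 and 4.20% for miR-151a, and reads with ends within 2 nt gave 3.75% for miR-151a. The share of the most frequent start among reads of the most frequent end was 99.2% for miR-28-5p, 98.4% for miR-28-3p, 97.4% for miR-151a-5p (also 97.4% within 2 nt) and 96.3% for miR-151a-3p. The share of the most frequent end among reads of the most frequent start was 88.3% for miR-28-3p and 99.7% for miR-151a-3p, and within 2 nt it was 79.0% for miR-151a-5p. With miR-151b added, miR-151a-5p stood at 506.0 RPM with the empty vector. In the other 34 repeats of a main value it stayed within its counting interval or, for counts and shares of miRNAs, within 1.5 times. Of the remaining repeats (ratios of single arms, arm, start and end shares and the level of miR-151a-5p in the other libraries, counts of untransfected miRNAs, and CVs, whose alternatives were added after the data were seen), 105 moved by more than that and 94 did not. The CVs of the 4 arms were 8.22% to 9.49% (miR-28) and 6.14% to 6.99% (miR-151a) with DESeq2's size factors, 15.6% to 21.9% with all reads and 49.2% to 54.8% with miR-16-5p.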

Other observations

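Other miRNAs with links to LINE-2 or to the seeds above were looked up, of which miR-95-5p and miR-325 had no row in the table. miR-95-3p, a miRNA also traced to LINE-2 sequence, had 451, 437, 582 and 517 reads (empty vector, wild-type, mutant 1, mutant 2), far fewer than miR-28-5p. Outside the group, miR-3139 shares the seed of miR-708-5p and had 3, 10, 6 and 9 reads. Whether miR-28-5p or either arm of miR-151a shares a seed with another member was not tested. Its RefSeq sequence, with the seed in capitals, lies at chr4:143343469-143343491 on the plus strand.
hsa-miR-3139: uAGGAGCUcaacagaugccuguu

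miR-151b comes from a hairpin on chromosome 14, on the strand opposite to its host EVL, and shares a run of 27 nt with the MIR151A hairpin, longer than any listed read, so reads of the 2 loci can be hard to tell apart. It had 349, 302, 194 and 321 reads, and 344, 295, 193 and 309 of them belonged to the isoform that starts at its annotated base and ends 3 nt beyond. The isoform of miR-151a-5p that ends 1 nt short of its annotated base had 328, 286, 189 and 299 reads, or 0.953 to 0.979 times as many, and both were lowest in mutant 1. Whether the same reads were divided between them was not tested.

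The untransfected miRNAs whose profile over the 4 libraries was closest to each abundant arm were found among 219 that averaged 500 reads or more, by the root mean square difference of centred log2 levels. They were miR-22-3p (0.019) and miR-375-3p (0.029) for miR-28-5p, miR-542-3p (0.015) and miR-190a-5p (0.037) for miR-28-3p, miR-542-3p (0.033) and miR-148a-3p (0.034) for miR-151a-5p, and miR-100-3p (0.017) and miR-99b-5p (0.026) for miR-151a-3p. The median over all candidates was 0.150 to 0.182. miR-22-3p was, like miR-28-5p, lowest in mutant 1, at 15548 RPM against 21139 RPM with the empty vector. With 4 points a likeness of profile is a description only.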
